A study of Bos taurus with 8 samples.

Results

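A set of 7 genes used as markers of ovarian theca cells were followed in bovine granulosa cells around the luteinizing hormone (LH) surge: CYP17A1, INSL3, PTCH1, TCF21, NR2F2, COLEC11 and ANPEP. They were chosen by gene symbol, as every probe that the array's annotation gives to 1 of these 7 genes. This gave 11 probes among the 43794 probes of the array, and 7 of the 14138 genes tested. The array held 3 probes each for PTCH1 and NR2F2 and 1 for each of the other genes, and a gene was read by its brightest probe.

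Granulosa cells were collected from Holstein Friesian cows, stimulated with FSH for 4 days, at 3 times: 2 h before the LH surge, and 6 h and 22 h after a surge induced with GnRH (8 h and 24 h after the GnRH dose). Each of 8 two-colour arrays carried 1 post-LH sample and 1 pre-LH sample. There were 4 arrays for the 6 h cells and 4 for the 22 h cells, with the dyes exchanged between replicates 1 and 2 and replicates 3 and 4. The labels give follicles of 6 to 8 mm for the pre-LH cells, above 8 mm for the 6 h cells and pre-ovulatory follicles for the 22 h cells, so time and follicle size cannot be told apart. The cells were scraped from opened follicles, and the labels state that some theca cells came with them, seen by PCR for CYP17. All 7 genes were above the negative control spots in all 16 channels.

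The follicle wall has an inner layer of granulosa cells and, across a basement membrane, a theca layer with steroid-making cells, fibroblasts, smooth muscle and vessels. In the usual division of labour, theca cells turn cholesterol into androgen with CYP17A1, and granulosa cells turn that androgen into oestradiol with aromatase. In mice, granulosa cells also send hedgehog ligands to theca precursors, which receive them through the receptor PTCH1. In cattle the LH surge ends androgen and oestradiol output and turns both layers towards progesterone.

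Between 75.1% and 85.4% of probes were above the negative controls in a channel. Both replicate 4 arrays stood apart: their pre-LH levels correlated at 0.858 to 0.877 with those of replicates 1 to 3, against 0.985 to 0.997 among replicates 1 to 3, and their post-LH levels at 0.842 to 0.884, against 0.954 to 0.993. Pre-LH levels of the same replicate number correlated at 0.993 to 0.997 between the 2 slides. Different numbers among replicates 1 to 3 gave 0.985 to 0.994, and the 2 replicate 4 arrays gave 0.994 with each other. The design text gives 4 biological replicates per time. Whether the same pre-LH RNA was used on both slides is not stated, and the 6 h and 22 h comparisons may share their pre-LH samples. The 6 h arrays lay on 1 slide and the 22 h arrays on the other, so time and slide cannot be told apart in the direct comparison of the times.

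At 6 h, 5 of the 7 theca genes passed the test against pre-LH (limma, Benjamini-Hochberg adjusted p under 0.05 over all tested probes), 1 higher and 4 lower. Over all genes, 24.3% passed. Of all genes, 11.5% were higher and 12.8% lower. At 22 h all 7 passed, 1 higher and 6 lower, where 20.4% of all genes passed, 9.75% higher and 10.6% lower. Between 22 h and 6 h, 4 of the 7 differed, 1 higher and 3 lower at 22 h, where 15.1% of all genes differed, 7.72% higher and 7.41% lower. The median log2 change of the 7 genes was -0.69 for the 6 h cells, -1.19 for the 22 h cells and -0.10 for 22 h over 6 h, and that of all genes was -0.0039, 0.0056 and 0.0076. Without both replicate 4 arrays, 4, 7 and 4 of the 7 genes passed. In that fit 2445 of all genes passed at 6 h, against 3437 with all 8 arrays. In RNA from a mixed cell sample, a changed share of theca cells and changed RNA per cell, in theca or granulosa cells, cannot be told apart.

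**Figure D1:**
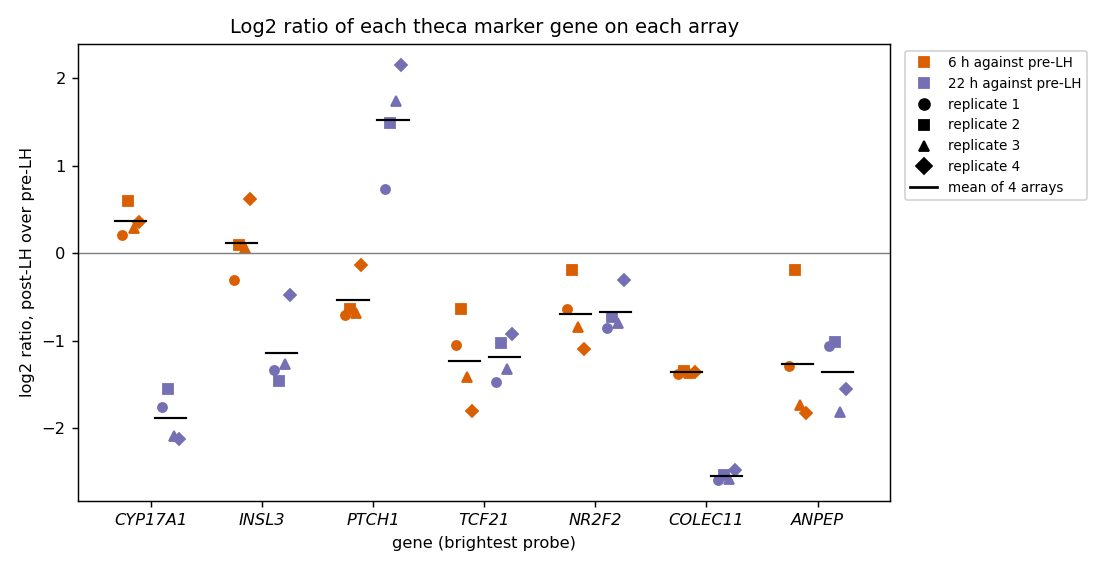
Log2 post-LH over pre-LH ratio of each theca gene (brightest probe) on each array, at 6 h and at 22 h, with a point per array, shaped by replicate, and a line at the mean of 4 arrays. COLEC11 was lower on every array at both times, CYP17A1 and INSL3 were lower at 22 h and not at 6 h, and PTCH1 was higher at 22 h.

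CYP17A1, the enzyme that commits steroid synthesis to androgen, was slightly higher at 6 h and much lower at 22 h. Its log2 ratio to pre-LH was 0.21, 0.60, 0.29 and 0.35 on the 6 h arrays (replicates 1 to 4), and -1.76, -1.56, -2.09 and -2.13 on the 22 h arrays. All 4 ratios were above 0 at 6 h and all 4 below 0 at 22 h. Its log2 channel level ran from 9.24 to 9.72 (median 9.44) over the 8 pre-LH channels. It was 9.93, 10.15, 9.72 and 9.67 at 6 h, overlapping the pre-LH range, and 7.69, 8.03, 7.32 and 7.11 at 22 h, all below it.

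CYP17A1 rose by 0.36 ± 0.08 at 6 h (log2 change ± SE, n = 4 arrays, limma adjusted p = 0.0239) and fell by 1.88 ± 0.08 at 22 h (limma adjusted p = 4.03e-05), 3.69-fold. The 22 h change minus the 6 h change was -2.25 ± 0.12 (limma adjusted p = 0.000166). At 22 h the probe's spots were 1.21 to 2.19 times the negative control level (the 95th percentile of those spots), near background. The change was -2.12 with an offset of 16, -2.19 with no background correction, -2.30 with the background taken from the negative controls, and -2.42 in the authors' deposited values, whose steps are unknown. The 6 h call was lost without both replicate 4 arrays, where the change was 0.32 with a limma adjusted p of 0.127, and without 6 h replicate 2, 3 or 4 alone (0.121, 0.0899 and 0.103).

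INSL3, the insulin-like peptide hormone that theca cells of cattle secrete, was lower at 22 h, and its 6 h change did not pass. Its log2 ratio was -0.31, 0.09, 0.05 and 0.62 on the 6 h arrays and -1.34, -1.46, -1.27 and -0.48 on the 22 h arrays. The 6 h ratios lay on both sides of 0, and replicate 4 was the highest at both times. The channel level was 10.27 to 11.35 (median 10.93) before LH, 11.04, 11.26, 10.78 and 10.91 at 6 h, and 9.89, 9.69, 9.35 and 9.79 at 22 h.

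All 4 levels of INSL3 at 22 h were below the lowest pre-LH level, and all 4 at 6 h were inside the pre-LH range. It fell by 1.14 ± 0.14 at 22 h (limma adjusted p = 0.0029), 2.20-fold. The change at 6 h was 0.12 ± 0.14, with a 95% interval from -0.23 to 0.46 and an adjusted p of 0.691. The times differed by -1.25 ± 0.20 (limma adjusted p = 0.0111).

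The partners of CYP17A1 in androgen synthesis were the steroid carrier and enzymes, their electron donors and the hormone receptors that drive them. Of 18 genes on that list, CYP17A1 among them, 13 were tested, and granulosa cells express many of these too. Of the 12 tested besides CYP17A1, 1 was higher and 6 lower at 6 h, 1 was higher and 5 lower at 22 h, and 3 were higher and 1 lower at 22 h than at 6 h. Over all genes 24.3%, 20.4% and 15.1% passed in these comparisons. The 6 h falls included HSD3B1, which makes progesterone and androstenedione (-1.33 ± 0.20), and CYB5A, a helper of the CYP17A1 lyase step (-0.70 ± 0.12). The LH receptor LHCGR fell at 6 h as well (-0.69 ± 0.09, 1 of 2 probes, detected on 3 of 4 arrays at 6 h). So did the insulin receptor INSR (-0.52 ± 0.06). At 22 h the cholesterol side-chain cleavage enzyme CYP11A1 (-1.47 ± 0.21) and its electron donor FDX1 (-1.09 ± 0.19) were lower too. The cholesterol carrier STAR was also lower at 22 h (-0.80 ± 0.11, 2 of 3 probes).

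HSD3B1 and CYB5A then differed from CYP17A1 in direction between the times. HSD3B1 was higher at 22 h than at 6 h by 1.99 ± 0.29 and CYB5A by 1.14 ± 0.17, and FDX1 changed by -1.73 ± 0.27 between these times. At 6 h STAR had 2 probes lower and 1 higher, and of the 3 CYB5A probes 2 were lower at 6 h and 1 was higher at 22 h than at 6 h.

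PTCH1, the membrane receptor for hedgehog ligands, was the only theca gene that was higher at 22 h. Its log2 ratio was -0.71, -0.64, -0.68 and -0.13 on the 6 h arrays and 0.74, 1.48, 1.73 and 2.15 on the 22 h arrays. All 4 arrays were below 0 at 6 h and all 4 above 0 at 22 h. The channel level was 11.23 to 12.12 (median 11.56) before LH. It was 11.41, 10.98, 10.80 and 11.44 at 6 h, where 2 of 4 lay in the pre-LH range, and 12.83, 13.02, 13.12 and 13.38 at 22 h, all above it.

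PTCH1 rose by 1.53 ± 0.16 at 22 h (limma adjusted p = 0.0013), 2.88-fold, and the times differed by 2.07 ± 0.22 (limma adjusted p = 0.0025). The 6 h change of -0.54 ± 0.16 did not pass (limma adjusted p = 0.060, 95% interval -0.92 to -0.17). It passed in 7 of 20 alternatives, among them the authors' deposited values (limma adjusted p = 0.0101), the 6 h arrays alone (0.0243) and the replicate number as a block (0.0424). The call rests on 1 probe, EMBV3_18319. The other 2 PTCH1 probes, EMBV3_32580 and EMBV3_09209, were at 1.06 to 1.47 times the negative control level in every channel, and their changes lay between -0.05 and 0.03. With the mean of all 3 probes the 22 h change was 0.52 and still passed.

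**Figure D2:**
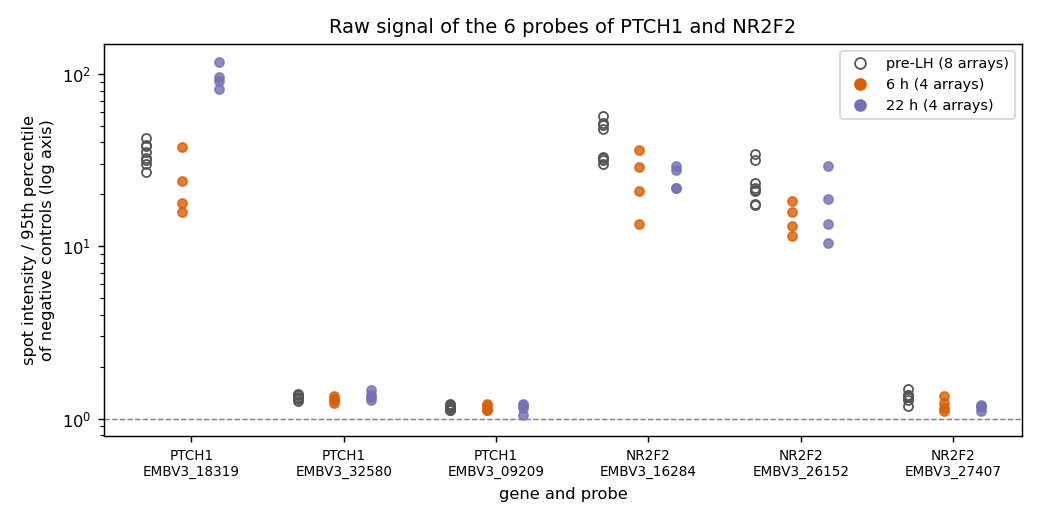
Raw spot intensity of the 3 PTCH1 and 3 NR2F2 probes divided by the negative control level (their 95th percentile), drawn on a log axis, with a point per channel for pre-LH, 6 h and 22 h cells. The PTCH1 probes EMBV3_32580 and EMBV3_09209 and the NR2F2 probe EMBV3_27407 lie just above 1 in every channel, at up to 1.48.

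PTCH1 is itself a transcriptional target of hedgehog signalling, and the share of its pathway that passed was close to that of all genes. Of the 17 pathway genes, 15 had probes and 14 were tested. At 6 h 1 was higher and 2 lower, and at 22 h 2 were higher, PTCH1 among them, and 1 lower, which is 21.4% at each time against 24.3% and 20.4% of all genes. PTCH1 was the only one of the 14 that differed between the times (limma, 2 had an unadjusted p under 0.05). The ligand-binding inhibitor HHIP was lower at both times (-0.62 ± 0.11 and -0.69 ± 0.11). The transcription factor GLI3 was higher at both (0.51 ± 0.09 and 0.40 ± 0.09). The co-receptor CDON passed as lower at 6 h (-0.29 ± 0.06), but its probe was dim (mean log2 intensity 7.26). The ligand IHH changed by -0.06 ± 0.14 at 6 h and 0.29 ± 0.14 at 22 h and did not pass. DHH, SHH, SUFU, GAS1, CDON and the target gene GLI1 had mean log2 intensities of 7.08 to 7.28. These are near the dim PTCH1 probes (7.17 and 7.31), so their changes cannot be read here. BOC and DISP1 were little brighter (7.32 and 7.35), and the shares above count all these dim genes.

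**Figure D3:**
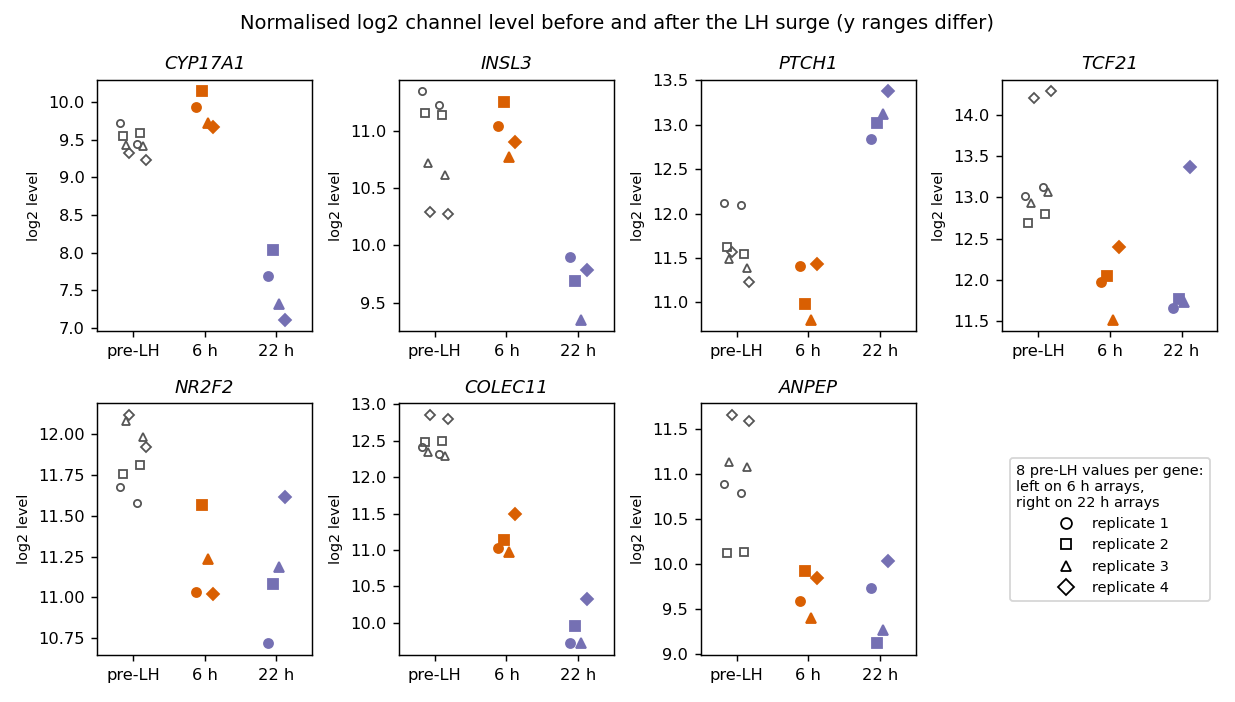
Log2 channel level of each theca gene in pre-LH, 6 h and 22 h cells, with a point for each of 8, 4 and 4 channels, shaped by replicate. The 22 h levels of COLEC11, CYP17A1, INSL3 and ANPEP lay below all pre-LH levels, and those of PTCH1 above.

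TCF21, a transcription factor of mesenchymal cells, was lower by about the same amount at both times. Its log2 ratio was -1.05, -0.64, -1.42 and -1.80 on the 6 h arrays and -1.47, -1.03, -1.33 and -0.92 on the 22 h arrays. All 8 ratios were below 0. The channel level was 12.69 to 14.29 (median 13.04) before LH, 11.97, 12.04, 11.51 and 12.40 at 6 h, and 11.65, 11.77, 11.73 and 13.37 at 22 h.

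Every 6 h level of TCF21 was below the pre-LH range, and at 22 h only replicate 4 fell inside it. The pre-LH channels of replicate 4 were the highest for TCF21 as well. TCF21 fell by 1.23 ± 0.16 at 6 h (limma adjusted p = 0.0031) and by 1.19 ± 0.16 at 22 h (limma adjusted p = 0.0041), 2.34-fold and 2.28-fold. The difference between the times was 0.04 ± 0.23 (95% interval -0.51 to 0.59). Without both replicate 4 arrays it was -0.24, and the falls were 1.09 and 1.33 and still passed.

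NR2F2, also called COUP-TFII, an orphan nuclear receptor of stromal and theca cells, had the smallest falls among the genes that fell. The log2 ratio of its brightest probe was -0.64, -0.19, -0.84 and -1.09 on the 6 h arrays and -0.86, -0.73, -0.80 and -0.30 on the 22 h arrays. The channel level was 11.58 to 12.12 (median 11.87) before LH, 11.03, 11.57, 11.24 and 11.02 at 6 h, and 10.72, 11.08, 11.19 and 11.62 at 22 h. All 8 ratios were below 0, and only replicate 4 at 22 h had a level inside the pre-LH range.

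NR2F2 fell by 0.69 ± 0.15 at 6 h (limma adjusted p = 0.0193) and by 0.67 ± 0.15 at 22 h (limma adjusted p = 0.0257). The second probe, EMBV3_26152, changed by -0.53 ± 0.18 and -0.45 ± 0.18 with limma adjusted p of 0.101 and 0.176, so the call rests on 1 probe of 3. The third, EMBV3_27407, was at 1.10 to 1.48 times the negative control level. The NR2F2 calls were lost when single arrays were left out: with limma adjusted p of 0.0908, 0.0732 and 0.0841 at 6 h without 6 h replicate 1, 3 or 4, and of 0.0907, 0.0866 and 0.121 at 22 h without 22 h replicate 1, 2 or 3. Without 6 h replicate 1 the 22 h value was 0.053, with the replicate number as a block it was 0.0551, and with the 22 h arrays alone 0.0692.

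Of 18 retinoid and mesenchymal factors, TCF21 and NR2F2 included, 14 were tested. Of the 12 besides these members, 2 were higher and 5 lower at 6 h (24.3% of all genes passed), 1 was higher and 3 lower at 22 h (20.4% of all genes), and 1 differed between the times (15.1% of all genes). The falls at 6 h included RARRES1, a retinoid-responsive gene (-1.11 ± 0.19), and the retinal dehydrogenase ALDH1A1 (-1.04 ± 0.23, and -1.59 ± 0.23 at 22 h, 1 of 2 probes). The homeobox factor MEIS1 went the other way, higher by 1.08 ± 0.06 at 6 h and 1.38 ± 0.06 at 22 h (2 of 3 probes). NR2F1, the closest relative of NR2F2, was lower at 6 h (-0.64 ± 0.08, limma adjusted p = 0.0026). At 22 h it was near its pre-LH level (0.0015 ± 0.08, limma adjusted p = 0.994). It was thus higher at 22 h than at 6 h by 0.64 ± 0.12.

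COLEC11, a secreted lectin that binds sugars and starts the lectin pathway of complement, fell at both times with the least spread of the 7 genes. Its log2 ratio was -1.38, -1.35, -1.37 and -1.36 on the 6 h arrays and -2.59, -2.53, -2.58 and -2.48 on the 22 h arrays. The channel level was 12.30 to 12.85 (median 12.44) before LH, 11.03, 11.13, 10.98 and 11.49 at 6 h, and 9.72, 9.96, 9.72 and 10.32 at 22 h. The levels of the 3 times did not overlap.

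COLEC11 fell by 1.37 ± 0.03 at 6 h (limma adjusted p = 3.3e-06) and changed by -2.55 ± 0.03 at 22 h (limma adjusted p = 5.3e-07), 2.58-fold and 5.84-fold. The 22 h change minus the 6 h change was -1.18 ± 0.04 (limma adjusted p = 6.26e-05). Both replicate 4 arrays gave ratios close to the rest, and without them the changes were -1.37 and -2.57.

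ANPEP, aminopeptidase N or CD13, a cell-surface enzyme that trims peptides, was lower at both times and spread widely. Its log2 ratio was -1.30, -0.20, -1.73 and -1.82 on the 6 h arrays and -1.06, -1.02, -1.82 and -1.55 on the 22 h arrays. The 6 h replicate 2 ratio was the nearest to 0 of the 8. The channel level was 10.12 to 11.66 (median 10.98) before LH, 9.59, 9.92, 9.40 and 9.84 at 6 h, and 9.73, 9.11, 9.26 and 10.04 at 22 h.

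No post-LH level of ANPEP reached the pre-LH range, and the levels of the 2 post-LH times overlapped. ANPEP fell by 1.26 ± 0.16 at 6 h (limma adjusted p = 0.0027) and by 1.36 ± 0.16 at 22 h (limma adjusted p = 0.0023), 2.40-fold and 2.57-fold. The times differed by -0.10 ± 0.23 (95% interval -0.64 to 0.45). The 6 h mean ratio was -0.75 with the 6 h cells in Cy5 and -1.78 with them in Cy3, and the dye effect had a limma adjusted p of 0.068.

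Of 11 lectin, complement and peptidase relatives, with COLEC11 and ANPEP among them, 10 were tested. Of the 8 besides these members, 2 were lower at 6 h and 2 at 22 h, where 12.8% and 10.6% of all genes were lower. The complement protease MASP1 was lower at both times (-0.73 and -0.81, 1 of 3 probes), and the aminopeptidase ERAP1 was lower at 6 h (-0.51) and higher at 22 h than at 6 h by 0.68. The peptidase MME was lower at 22 h (-0.59, 1 of 3 probes).

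The 7 genes did not follow 1 time course. Over the 8 arrays, ANPEP and TCF21 had the most similar dye-corrected log2 ratios of all 21 pairs, with a root mean square difference of 0.28, followed by TCF21 and NR2F2 at 0.53 and CYP17A1 and INSL3 at 0.62. COLEC11 and PTCH1 were the least similar, at 2.95. Among all genes, the nearest to CYP17A1 were INSIG1, NINJ1 and SQLE (0.25, 0.34 and 0.35), and the nearest to INSL3 were GINS1, MFN2 and NKRF (0.12, 0.22 and 0.22). COLEC11 lay nearest to SLC1A3, PSAT1 and ATP4B (0.31, 0.33 and 0.40), and PTCH1 to GPNMB, CAV1 and LOC782977 (0.33, 0.35 and 0.37). ANPEP lay nearest to PRND, WDR76 and BCAR3, TCF21 to BAG2, WDR76 and NSL1, and NR2F2 to LATS2, MYL9 and MYC, at 0.14 to 0.28.

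All or most of the 7 genes lay above the mean of their time on 2 arrays. These 2 are not independent, since the fit removes a mean per time and 1 common dye effect. For each gene of any list, 6 h replicates 1 and 2 then have the same summed deviation as 22 h replicates 3 and 4. On the 6 h replicate 2 array, all 7 ratios were above the mean of their time, by a median of 0.22 (0.03 to 0.65), where 53.1% of all genes were above theirs. On the 22 h replicate 4 array, 6 of 7 were above it, by a median of 0.35, where 55.5% of all genes were. On the other 6 arrays, 1 to 3 of the 7 were above. Only 1 was above on 6 h replicate 3, 22 h replicate 1 and 22 h replicate 3, so most genes lay below there. Deviations are taken from the mean of each time, so arrays above it are offset by others below. On 6 h replicate 2 and 22 h replicate 4, in that order, 15 and 13 of 15 fibroblast markers were above their mean. So were 6 and 7 of 8 smooth muscle markers, 7 and 10 of 12 endothelial markers and 5 and 3 of 15 granulosa markers. By count, granulosa markers were lowest on another array, 6 h replicate 1, with 1 of 15 above. There 2 of the 7 theca genes were above. By median deviation, granulosa markers were lowest on 22 h replicate 4 (-0.43, against -0.22 on 6 h replicate 1). The part that the makeup of the scraped cells played in this was not tested.

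**Figure D4:**
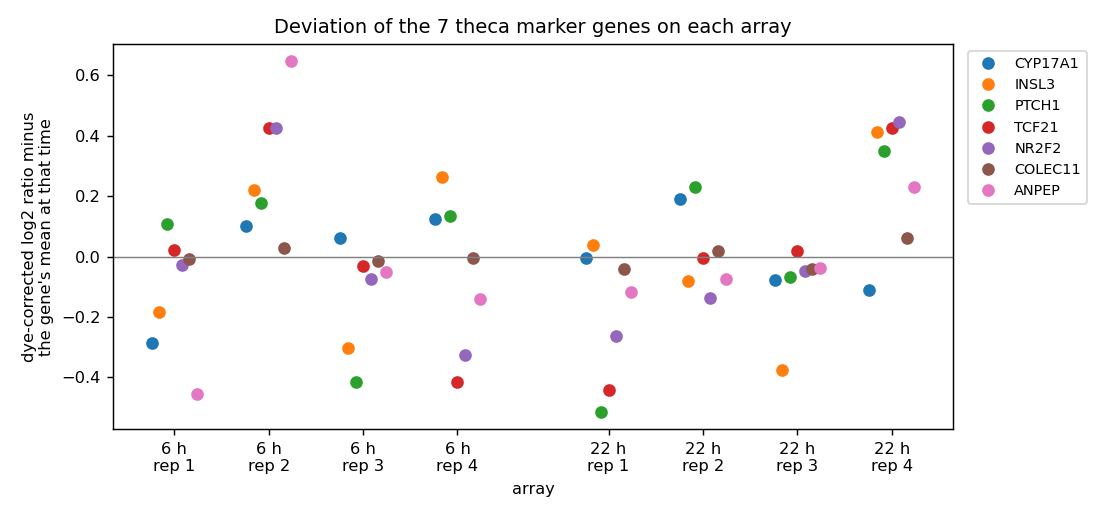
Deviation of each theca gene's dye-corrected log2 ratio from the mean of its time, by array. All 7 genes lie above 0 on the 6 h replicate 2 array and 6 of 7 on the 22 h replicate 4 array. The removed dye effect ties the deviations of the 6 h and 22 h arrays, so these are not separate observations.

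Markers of the other cell types of the follicle wall were counted in the same way, beside 24.3% of all genes passing at 6 h and 20.4% at 22 h, and the lists were not tested against the theca genes. Of 15 fibroblast and stroma markers, 3 were higher and 2 lower at 6 h, and 4 were higher and 1 lower at 22 h, with POSTN, a matrix protein, higher by 3.06 ± 0.22 at 22 h and OGN, a small proteoglycan, lower at both times (-2.70 ± 0.28 at 22 h). Of 8 smooth muscle markers of the theca externa, 1 was lower at 6 h (MYLK, -1.27 ± 0.15) and 2 at 22 h (LMOD1, -0.78 ± 0.11, and RGS5, -0.52 ± 0.08). Of 12 endothelial markers, 2 were higher and 1 lower at 6 h, and 5 were lower at 22 h, among them the VEGF receptor KDR (-1.15 ± 0.15). Of 10 tested leukocyte markers, 4 were higher at 6 h, and at 22 h none passed in limma (1 had an unadjusted p under 0.05). The 4 rises were small, from 0.22 for AIF1 to 0.40 for CD68, and CD14 among them was dim (mean log2 intensity 7.24).

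Intensities were summed over the genes of a list and the sum was then put on the log2 scale. For the 7 theca genes this sum was 14.49 to 15.25 before LH, 13.60 to 14.03 at 6 h and 13.88 to 14.76 at 22 h. That of the fibroblast markers was 17.24 to 17.46, 16.72 to 17.35 and 17.09 to 17.33, and that of the smooth muscle markers 15.65 to 16.41, 15.16 to 15.74 and 15.62 to 16.22, in the same order of times. The endothelial sum was 13.25 to 14.48, 13.35 to 14.31 and 12.78 to 14.13. These sums are carried by their brightest probes, and COL3A1, VIM and the smooth muscle gene ACTA2 were saturated in 5, 4 and 5 of 16 channels, which limits how far those sums could move. Granulosa markers moved as well, with 2 of 15 higher and 8 lower at 6 h and 3 higher and 5 lower at 22 h, and a median of -0.62 and -0.33. The inhibin subunit INHBB (-3.80 ± 0.23 at 22 h) and aromatase, CYP19A1 (-1.74 ± 0.27 at 6 h, 2 of 3 probes) were lower. MRO was higher by 2.30 ± 0.17 at 6 h and 3.53 ± 0.17 at 22 h. The adhesion protein CDH2 was higher by 1.66 ± 0.13 and 2.57 ± 0.13 (2 of 3 probes). These counts and medians include INHA, INHBA and SERPINE2, saturated in 6, 5 and 7 of 16 channels. They also include the dim FOXL2 (mean log2 intensity 7.06) and AMHR2, detected on 1 of 4 arrays at 6 h. The part of the granulosa markers in the theca gene results was not tested.

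**Figure D5:**
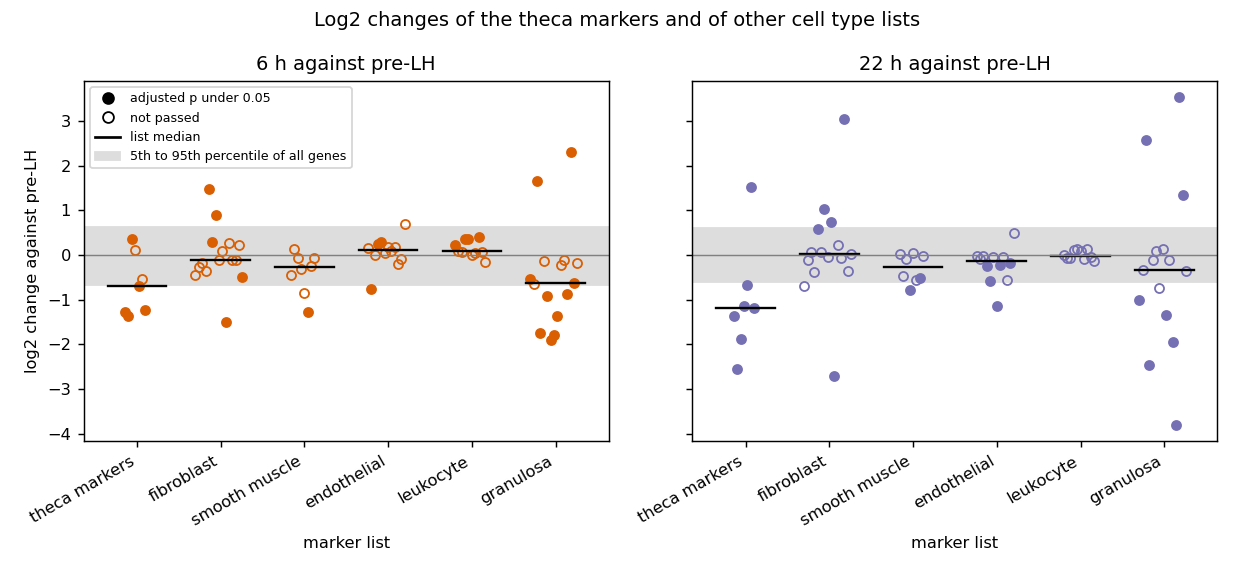
Log2 change of the tested genes of each cell type list at 6 h and 22 h, with a point per gene (filled where it passed), a line at the list's median and a grey band from the 5th to the 95th percentile of all genes. The theca genes had medians of -0.69 and -1.19, the granulosa markers -0.62 and -0.33, and the fibroblast markers -0.10 and 0.03.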

How the data were processed

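Gene expression was measured in 8 two-colour arrays of amplified RNA, labelled with Cy3 and Cy5 per the labels' protocols. The authors deposited raw spot and background intensity per dye, per the file headers, and a table of processed log2 ratios. No label or header names the steps behind that table. Its scale and direction were set against the scanner values (r 0.84 to 0.93 per array, medians -0.016 to 0.0050).

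Local background was corrected with normexp (offset 50), arrays were loess normalised without weight on the 1418 control spots, and log2 post-LH over pre-LH ratios were tested with limma 3.58.1 in R 4.3.3, with a common dye effect over all 8 arrays. A probe was tested if above the 95th percentile of 153 negative control spots in at least 0.5 of the channels of a group, which kept 38453 probes. Symbols came from the platform annotation, with 21790 probes bearing 1 symbol, 22004 none and 1524 updated from RefSeq. The model was checked on simulated data.

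The members and gene lists were chosen with earlier results of these data known. All members and probes are named, with the 3 nearest genes of each member and, per list and comparison, from the 4 called genes of largest change. Replicates are labelled biological, and pre-LH RNA may have been reused, so p-values cover the spread between these arrays. The number of arrays limits the precision. The ratio difference between replicates 1 and 2 correlated at 0.29 between the times, and that between replicates 3 and 4 at 0.04. The main fit has no replicate block, and these values do not exclude pairing. A fit with the block is among the alternatives.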

Additional observations from a re-analysis of the deposited data

Results flagged for a closer look

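The 6 h replicate 4 ratio of PTCH1 was -0.13 (probe EMBV3_18319), where the other 3 arrays gave -0.71 to -0.64. The dim PTCH1 probe EMBV3_09209 also had a 6 h replicate 4 ratio apart from the rest, at -0.078, where the others gave 0.013 to 0.029. Among 22 sets of 4 arrays examined, chance flags about 1 in 20.

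The change at 22 h differed from the change at 6 h for 4 theca genes in the limma test of the difference itself. The difference was -2.25 for CYP17A1, -1.25 for INSL3, -1.18 for COLEC11 and 2.07 for PTCH1, on the log2 scale. The time of collection, the slide and the follicle size coincide in this difference and cannot be told apart.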

How the results depend on the processing

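Of 413 changes of the 7 theca genes recomputed under the alternatives, 364 kept their direction and side of the threshold. Median centring of each array in place of loess left 0, 2 and 0 theca genes and 85, 136 and 22 of all genes passing for 6 h, 22 h and the contrast of the times, where loess gave 5, 7 and 4 theca genes. The cause was not tested. Leaving out single arrays gave 3 to 6, 6 to 7 and 4 to 4 theca genes, with 3 at 6 h without 6 h replicate 3 or 4. Leaving out both replicate 4 arrays, chosen after seeing the data, gave 4, 7 and 4.

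Directions turned only for differences that did not pass. INSL3 at 6 h was -0.029 without both replicate 4 arrays. ANPEP between the times was 0.16 without 6 h replicate 2. TCF21 between the times was -0.15 with median centring, -0.0084 in the authors' deposited values, -0.12 and -0.13 without 6 h or 22 h replicate 4, and -0.24 without both. NR2F2 between the times was -0.12 with median centring, -0.082 in the deposited values, -0.01 without 6 h replicate 3, -0.11 and -0.16 without 6 h or 22 h replicate 4, and -0.24 without both. Over the fits that leave out 1 array, these differences ran from -0.28 to 0.16 for ANPEP, -0.13 to 0.22 for TCF21 and -0.16 to 0.19 for NR2F2.

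Over all genes, 1967 and 1933 passed at 6 h without 6 h replicate 1 or 2, 1473 at 22 h without 22 h replicate 3, and 1025 at 22 h with that time alone. Between the times 1328, 1187 and 1291 passed without 6 h replicate 1, 6 h replicate 2 or 22 h replicate 3. The main counts were 3437, 2878 and 2139. With the replicate number as a block, 6, 6 and 4 theca genes passed: the PTCH1 fall at 6 h was gained (limma adjusted p = 0.0424) and NR2F2 at 22 h lost (0.0551). Same-numbered pre-LH channels may hold the same RNA, and the labels do not state it. With 1 time alone in the fit, INSL3 and NR2F2 at 22 h were lost (limma adjusted p of 0.0599 and 0.0692). CYP17A1 at 22 h is limited by signal near background.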
